A study of Mus musculus with 8 samples.

Results

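Interferon-stimulated genes are genes that cells transcribe when they sense an interferon, and 48 of them were looked up by name among the 25477 loci of the expression table. All 48 had a locus. Where a gene had several loci, as Usp18, Isg20 and Ifi27 did, the locus with the highest mean over the 8 libraries was taken, and 44 genes reached a mean of at least 1 FPKM (fragments per kilobase, a level corrected for transcript length and sequencing depth). These 44 are described here, among the 11417 loci that passed the same filter. The genes left out by the filter were Ifit1 (mean 0.815 FPKM), Rsad2 (0.613), Parp12 (0.160) and Ifi44 (0.0289). Just above the filter lay Oasl2 (1.03 FPKM), Oas3 (1.05) and Mx1 (1.11). Of the 44 genes, 0 had a mean under 1 FPKM in the shCrebbp libraries and 5 in the scramble libraries, so these 5 passed through the shCrebbp libraries.

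The RNA came from mouse lymphoma cells of the spleen that were positive for B220, a B cell surface protein, and for green fluorescent protein. In the shCrebbp group (4 libraries) the cells carried a short hairpin RNA against Crebbp, and in the scramble group (4 libraries) a scramble hairpin. Crebbp encodes the acetyltransferase CBP, a coactivator of transcription. Library names carry 3 prefixes: AO228 for shCrebbp 1 and 2, AO229 for shCrebbp 3 and 4, and AO227 for scramble 1 to 4. What the prefixes stand for, the strain, age and genotype of the mice, the origin of the lymphoma and the vector are not given in the sources used here. The labels also leave out whether the libraries came from separate animals, and the spread that p-values rest on may be technical. No prefix holds both groups, so prefix and hairpin cannot be told apart between shCrebbp and scramble.

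The read depth is unknown, and the share of loci listed at 0 was 46.0, 36.3, 33.2 and 43.8% in shCrebbp 1 to 4, against 43.4, 51.8, 43.9 and 42.4% in scramble 1 to 4. In shCrebbp 3 the abundant B cell gene Cd74 was listed at 0, so a 0 can be a failed estimate. Crebbp itself measured 18.9, 26.6, 23.4 and 19.3 FPKM in shCrebbp cells and 33.7, 22.9, 21.3 and 25.8 FPKM in scramble cells (log2 difference -0.22, exact two-sided permutation p = 0.314). With 4 libraries a group this test cannot go below 0.0286. The 7 B cell markers summed to 2443 to 3129 FPKM in shCrebbp and 2274 to 2715 FPKM in scramble libraries. The 13 macrophage and monocyte markers summed to 10.4 to 24.97 FPKM in shCrebbp and 23.0 to 39.9 FPKM in scramble libraries, ranges that overlap. At an unadjusted limma p under 0.05, 2.93% of all loci lay lower in shCrebbp. So did 2 of the 4 macrophage markers that passed the filter (Ly6c2 and Adgre1) and 1 of 2 for dendritic cells (Itgax). The same held for 1 of 3 for T cells (Lck) and the 1 for NK cells (Prf1). Of the T cell markers, Lck lay below 0 (log2 difference -0.79), but Cd3d (0.82) and Cd3g (0.07) lay above 0. The 5 NK cell markers summed to 0.216 to 4.73 FPKM in shCrebbp and 5.07 to 6.28 FPKM in scramble libraries. Most of that was Prf1, at 0.216 to 4.39 FPKM in shCrebbp and 3.14 to 5.20 FPKM in scramble libraries, ranges that overlap. The 6 T cell markers with a locus summed to 20.4 to 33.9 FPKM in shCrebbp and 21.9 to 44.5 FPKM in scramble libraries. Within that sum Lck alone measured 14.8 to 20.8 FPKM in shCrebbp and 18.0 to 36.7 FPKM in scramble libraries. The 5 dendritic cell markers summed to 15.2 to 39.6 FPKM in shCrebbp and 27.1 to 40.6 FPKM in scramble libraries. Most of that was Flt3, at 12.4 to 39.1 FPKM in shCrebbp and 21.1 to 37.9 FPKM in scramble libraries. The 4 neutrophil markers, with Elane at 0 in every library, summed to 0 to 3.92 FPKM in shCrebbp and 0 to 3.52 FPKM in scramble libraries, and the 4 erythroid markers to 4.62 to 25.1 FPKM in shCrebbp and 1.96 to 19.1 FPKM in scramble libraries. In such bulk samples, fewer cells of a type and less RNA per cell cannot be told apart, and the part of these other cells in the levels below was not tested.

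As background, interferons bind receptors whose Jak kinases phosphorylate Stat2. Stat2 and Irf9 are parts of the complex ISGF3, which binds the interferon-stimulated response element (ISRE) in promoters, while the gamma-activated site (GAS) serves the response to interferon gamma. CBP and the related p300 are known to bind Stat2. B cells read interferon through the same pathway, and products of the genes it switches on sense foreign nucleic acid, block viral replication, mark proteins with ubiquitin-like tags and feed back on the signal.

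The promoters show which of these elements stand next to the genes whose values matter most below. In RefSeq windows (build GRCm38.p6, which is mm10) of 250 bases before and 50 bases after each transcript start, an ISRE core was searched as GAAA, any 2 bases and GAAA, and a GAS as TTC, any 3 bases and GAA, both on either strand. A window was at hand for 34 of the 44 genes. An ISRE core was found in 18 of the 34 (52.9%), against 1079 of all 27025 genes with a window (3.99%). A GAS was found in 11 (32.4%), against 2582 genes (9.55%), and the motifs overlapped each other only in Bst2. By role, 6 of the 7 interferon-inducible GTPase genes and 3 of the 3 sensor genes with a window held an ISRE core. So did 2 of 2 secreted and feedback genes, 2 of 4 Oas family genes and 1 of 2 Ifit genes. Shares were lower for the Isg15 system (1 of 3), transcription factor genes (1 of 4), other effector genes (2 of 8) and the Dtx3l group (0 of 1). Shown here, 5′ to 3′ along the strand of the gene, are the 250 bases before the start and the first 30 transcribed bases for Isg15 and Cxcl10, which had the lowest differences between the groups, Dtx3l, which had the highest, Stat2, and Ddx58 and Irf1, which differed between the shCrebbp prefixes. Capitals mark the matches.
Isg15, chr4:156200789-156201068, minus strand: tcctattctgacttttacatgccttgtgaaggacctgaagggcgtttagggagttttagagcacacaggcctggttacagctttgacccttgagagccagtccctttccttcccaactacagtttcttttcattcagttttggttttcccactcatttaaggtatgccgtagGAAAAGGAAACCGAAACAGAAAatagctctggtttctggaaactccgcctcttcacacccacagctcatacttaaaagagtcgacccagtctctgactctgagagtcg
Cxcl10, chr5:92348860-92349139, minus strand: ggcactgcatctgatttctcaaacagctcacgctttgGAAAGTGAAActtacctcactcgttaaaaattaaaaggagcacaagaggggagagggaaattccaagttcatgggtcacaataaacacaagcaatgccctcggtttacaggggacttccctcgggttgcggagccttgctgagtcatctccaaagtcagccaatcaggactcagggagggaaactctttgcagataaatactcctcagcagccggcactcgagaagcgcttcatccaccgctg
Dtx3l, chr16:35938998-35939277, minus strand: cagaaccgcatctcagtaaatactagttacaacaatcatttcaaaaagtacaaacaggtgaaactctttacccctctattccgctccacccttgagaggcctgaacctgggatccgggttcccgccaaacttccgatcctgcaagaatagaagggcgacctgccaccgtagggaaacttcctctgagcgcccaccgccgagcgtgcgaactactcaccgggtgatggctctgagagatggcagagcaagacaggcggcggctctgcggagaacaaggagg
Stat2, chr10:128270248-128270527, plus strand: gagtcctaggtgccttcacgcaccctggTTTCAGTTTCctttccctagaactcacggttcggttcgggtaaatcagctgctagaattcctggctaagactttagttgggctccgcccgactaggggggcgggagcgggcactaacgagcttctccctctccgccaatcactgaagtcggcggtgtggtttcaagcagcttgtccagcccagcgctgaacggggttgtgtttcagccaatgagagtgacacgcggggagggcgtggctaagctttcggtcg
Ddx58, chr4:40239796-40240075, minus strand: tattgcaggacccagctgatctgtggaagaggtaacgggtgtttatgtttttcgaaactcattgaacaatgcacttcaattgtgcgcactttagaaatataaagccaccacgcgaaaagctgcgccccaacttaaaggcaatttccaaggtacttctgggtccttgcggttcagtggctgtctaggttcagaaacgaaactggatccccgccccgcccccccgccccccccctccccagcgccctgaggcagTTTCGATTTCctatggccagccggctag
Irf1, chr11:53769764-53770043, plus strand: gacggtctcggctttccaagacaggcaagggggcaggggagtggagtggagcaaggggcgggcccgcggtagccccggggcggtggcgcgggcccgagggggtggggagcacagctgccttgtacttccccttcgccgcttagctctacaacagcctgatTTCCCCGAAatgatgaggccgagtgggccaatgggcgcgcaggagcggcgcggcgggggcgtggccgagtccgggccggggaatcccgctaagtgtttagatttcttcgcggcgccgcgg
The Isg15 window holds 3 overlapping ISRE cores that begin 78, 72 and 66 bases before the start. Cxcl10 and Stat2 hold a core each, 213 and 222 bases before the start, on the other strand in Stat2. In Ddx58 a core on the other strand begins at transcribed base 3. Irf1 holds a GAS 90 bases before its start, and in the Dtx3l window neither set of letters was found, which says nothing of what binds there. The 18 genes with an ISRE core had a median log2 difference between shCrebbp and scramble of 0.04, and the 16 without had 0.06.

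Most of the 44 genes were expressed at middling or low levels. Their median over genes of the mean level was 8.66 FPKM, against 9.24 FPKM for all 11417 loci, and 16 genes reached 10 FPKM. The highest mean belonged to Irf1, at 119.8 FPKM, above that of 95.9% of the loci. Samhd1 (72.4 FPKM), whose product breaks down the nucleotides that viruses copy with, Ifi27 (53.5 FPKM), an interferon-inducible gene of membrane proteins, and Irf7 (45.4 FPKM) came next. The Ifit, Oas and Mx genes lay low: Ifit2, Ifit3, Mx1, Mx2 and 4 of the 5 Oas family genes had means under 5 FPKM. Of the genes of interferons themselves, Ifnb1, Ifna1, Ifna2, Ifna4, Ifnl2, Ifnl3 and Ifne were listed at 0 in all 8 libraries. Ifnk measured 1.24 and 0.199 FPKM in shCrebbp 1 and 2 and 1.65 FPKM in scramble 1, and was listed at 0 in the other 5 libraries. Ifng measured 1.37, 1.13, 0.891 and 0.430 FPKM in shCrebbp 1 to 4, against 0, 0, 0.732 and 0.385 FPKM in scramble 1 to 4.

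**Figure D1:**
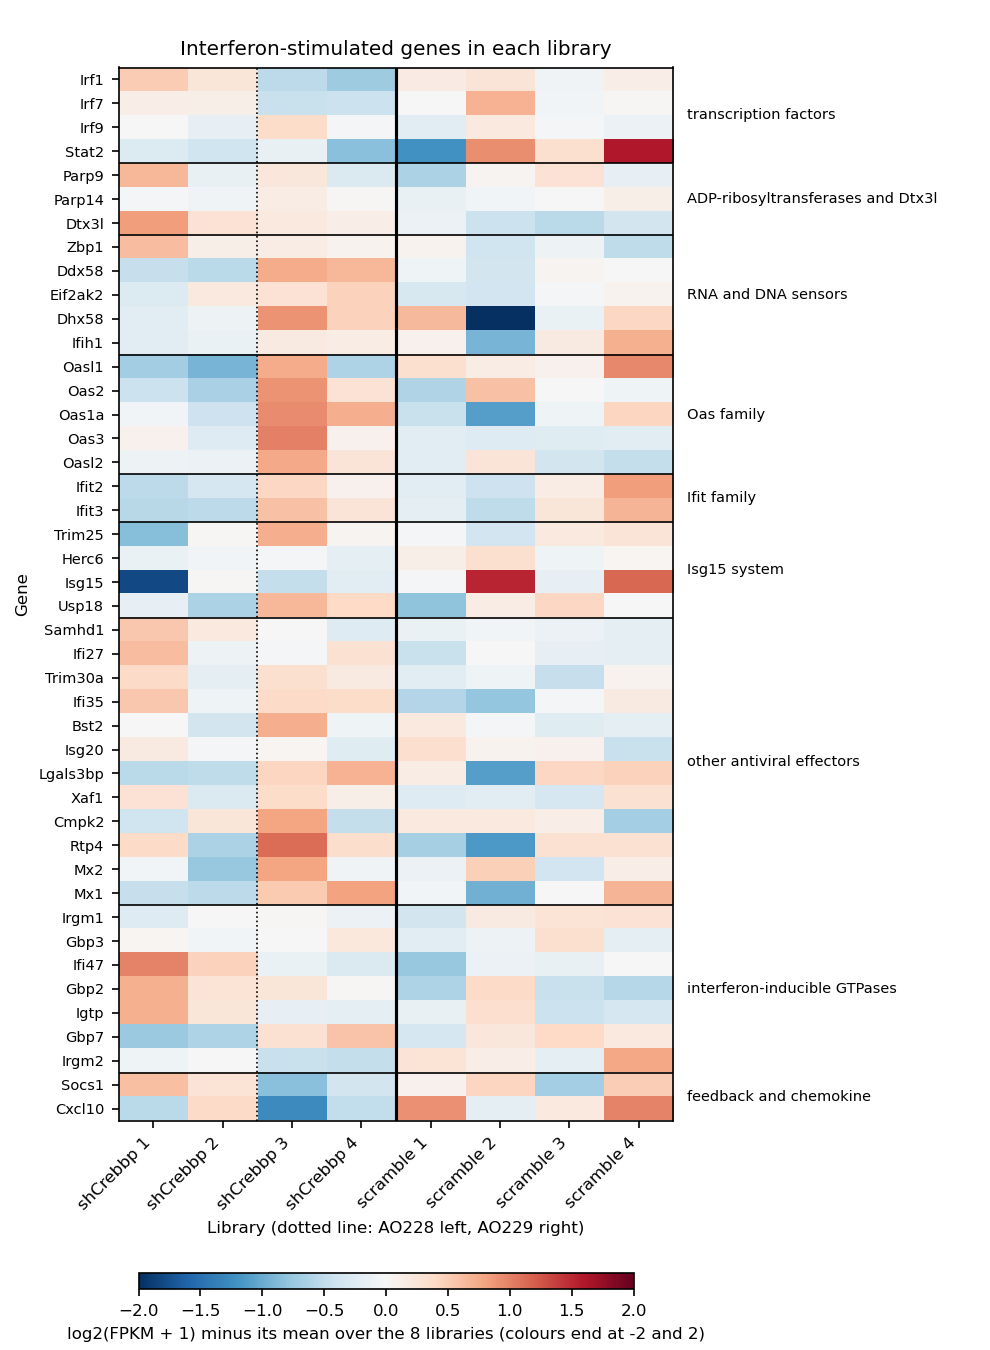
Heat map of the 44 interferon-stimulated genes (rows, grouped by role) in the 8 libraries (columns, shCrebbp left of scramble); colour is log2(FPKM + 1) minus the mean of the gene over the 8 libraries. No shCrebbp column is high or low throughout. In shCrebbp 3 Oas2 (0.90) and Oasl1 (0.74) are high, while Socs1 and Cxcl10 are low. Oas1a, Oas3 and Oasl2 are high there too, but they passed the filter through the shCrebbp libraries.

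The first comparison asked how the genes differ between shCrebbp and scramble cells, in a series whose title speaks of repressed expression. Limma called 0 of the 44 as higher or lower at an adjusted p under 0.05, as it called 0% of all loci. A test that calls no locus cannot show that the genes stayed the same. Over all loci the smallest adjusted p was 0.521. The smallest adjusted p among the 44 was 0.915. Differences lay above 0 for 27 genes and below 0 for 17, with a median of 0.09 on the log2(FPKM + 1) scale, against 0.01 for all loci, of which 52.0% lay above 0. Without the 5 genes under 1 FPKM in scramble, whose side of 0 the filter favoured, 22 lay above 0 and 17 below, with a median of 0.05. On this scale the change of genes near 1 FPKM is understated. At an unadjusted p under 0.05, 4 of the 44 (9.09%) lay higher in shCrebbp, Dtx3l, Ifi35, Zbp1 and Gbp2, against 2.08% of all loci. Isg15 and Cxcl10 (4.55%) lay lower, against 2.93% of all loci. The count of 4 became 2 without shCrebbp 1, without scramble 1 or without scramble 2. The count of 2 became 0 without shCrebbp 1 or scramble 4, and 1 without shCrebbp 3, shCrebbp 4 or scramble 2. Only for Dtx3l did the values of the groups not overlap with shCrebbp higher, against 1.58% of all loci, and 0 genes were separated the other way, against 1.74%.

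**Figure D2:**
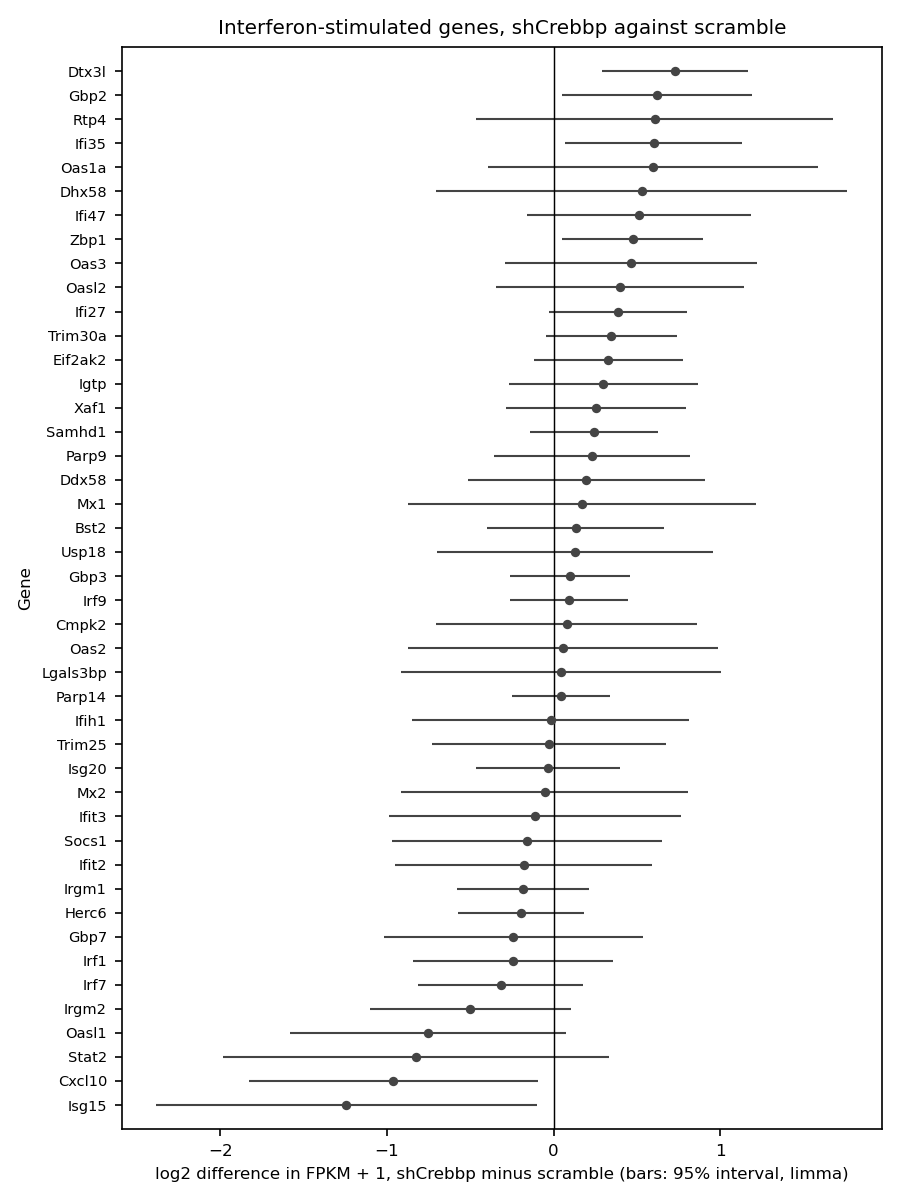
Difference of each of the 44 genes between shCrebbp and scramble cells (x axis, log2 difference in FPKM + 1, shCrebbp minus scramble), with 95% confidence intervals from limma, 4 libraries a group. Values run from 0.73 for Dtx3l to -1.24 for Isg15, and the intervals of 38 genes include 0.

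Dtx3l encodes a ubiquitin ligase that works as a heterodimer with Parp9, an ADP-ribosyltransferase family protein, and the nearby Parp14 encodes a relative that transfers ADP-ribose. Dtx3l measured 16.0, 10.6, 9.81 and 9.39 FPKM in shCrebbp 1 to 4, against 7.71, 6.01, 5.54 and 6.34 FPKM in scramble 1 to 4. All 4 shCrebbp libraries lay above all 4 scramble libraries, with shCrebbp 1 the highest. The means were 11.5 ± 3.07 FPKM in shCrebbp and 6.40 ± 0.932 FPKM in scramble (SD, n = 4 each), with a log2 difference of 0.73, a standard error of 0.19 and a 95% interval from 0.29 to 1.17. The limma p was 0.00436 unadjusted and 0.915 adjusted. The difference was 0.57 without shCrebbp 1 and 0.67 to 0.81 without any other library.

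For its partner the groups overlapped. Parp9 measured 23.2, 12.8, 16.9 and 11.5 FPKM in shCrebbp cells and 8.84, 14.8, 17.7 and 12.6 FPKM in scramble cells. The highest value was in shCrebbp 1 and the lowest in scramble 1, with means of 16.1 ± 5.24 FPKM in shCrebbp and 13.5 ± 3.71 FPKM in scramble (SD, n = 4 each) and a log2 difference of 0.23 with an interval from -0.36 to 0.82. Parp14 was the steadiest of the 3 genes, with 12.7, 12.2, 14.5 and 13.1 FPKM in shCrebbp cells and 11.5, 12.3, 12.9 and 14.1 FPKM in scramble cells (log2 difference 0.04, interval -0.25 to 0.34). The ratio of Dtx3l to Parp9 was 0.690, 0.830, 0.581 and 0.814 in shCrebbp 1 to 4, against 0.872, 0.406, 0.314 and 0.502 in scramble 1 to 4, so scramble 1 stood above all shCrebbp libraries. Dtx3l and Parp9 are listed as separate loci of the same span (mm10 chr16:35926515-35972731), where their annotated genes lie on opposite strands and overlap by 682 bases. The library kit keeps the strand, but its use in the counting is not stated, so reads of the overlap may not have been told apart. Parp14 lies at chr16:35832750-35871405.

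Of the 4 transcription factor genes, none passed the test, and 3 of the 4 differences lay below 0. Stat2, the transactivating subunit of ISGF3, measured 11.6, 10.5, 12.7 and 7.52 FPKM in shCrebbp cells and 5.57, 28.0, 18.0 and 45.2 FPKM in scramble cells. The shCrebbp libraries lay close together (10.6 ± 2.24 FPKM), while the scramble libraries ranged widely (24.2 ± 16.7 FPKM, SD, n = 4 each) and scramble 1 lay below every shCrebbp library. The log2 difference was -0.83, with an interval from -1.99 to 0.33 (exact permutation p = 0.229). Irf9, the DNA-binding subunit of ISGF3, shares its locus with Rnf31. That locus measured 40.8, 36.3, 53.2 and 40.1 FPKM in shCrebbp cells and 34.9, 47.0, 40.0 and 37.5 FPKM in scramble cells (log2 difference 0.09, interval -0.26 to 0.44). Irf7, which amplifies the production of type I interferons, measured 48.4, 47.8, 32.1 and 32.5 FPKM in shCrebbp cells and 43.8, 71.9, 42.3 and 44.7 FPKM in scramble cells. Within the scramble group only scramble 2 stood apart. The difference of Irf7 between the groups was -0.32, with an interval from -0.82 to 0.18. Irf1, a transcription factor that interferon gamma induces, measured 165, 137, 80.4 and 70.3 FPKM in shCrebbp cells and 130.4, 138, 111 and 127 FPKM in scramble cells. Both AO229 libraries lay below all scramble libraries and the AO228 libraries did not, and the difference between the groups was -0.24, with an interval from -0.84 to 0.35.

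Among the genes of nucleic acid sensors, 4 of the 5 differences lay above 0 (median 0.33), and none passed the test. Zbp1, a sensor of Z-form nucleic acid that can start cell death, measured 26.9, 18.6, 19.1 and 18.0 FPKM in shCrebbp cells and 18.1, 12.7, 15.9 and 11.7 FPKM in scramble cells. Only scramble 1 reached into the shCrebbp range (20.7 ± 4.22 FPKM in shCrebbp and 14.6 ± 2.91 FPKM in scramble, SD, n = 4 each; log2 difference 0.47, limma adjusted p = 0.915, exact permutation p = 0.0571). Eif2ak2, the gene of the RNA-activated kinase PKR, whose locus also holds Gm6548, measured 9.90 ± 2.21 FPKM in shCrebbp and 7.61 ± 1.32 FPKM in scramble cells. Ddx58, the gene of the RNA sensor RIG-I, measured 6.51, 6.09, 16.3 and 15.3 FPKM in shCrebbp cells and 8.80, 7.05, 9.70 and 9.37 FPKM in scramble cells. The AO228 libraries lay below all scramble libraries and the AO229 libraries above them, so the log2 difference between the groups, 0.20, joins opposite values. Ifih1, which encodes the sensor MDA5, and Dhx58, which encodes its regulator LGP2, differed by -0.02 and 0.53, with intervals that include 0.

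Isg15 encodes a ubiquitin-like protein that is attached to other proteins after interferon. It was listed at 0 in shCrebbp 1 and measured 2.53, 1.51 and 1.99 FPKM in shCrebbp 2 to 4, against 2.43, 9.05, 2.13 and 6.72 FPKM in scramble 1 to 4. Scramble 2 and 4 stood high, while scramble 1 and 3 lay in the range of the shCrebbp libraries. The log2 difference was -1.24, with an interval from -2.39 to -0.10 (limma adjusted p = 0.915, exact permutation p = 0.0857). The 0 in shCrebbp 1 enters this difference. For the other genes of the Isg15 system the differences were -0.20 for Herc6, a ligase for Isg15 in mice, -0.03 for Trim25, a ubiquitin ligase that acts on RIG-I, and 0.13 for Usp18, which removes Isg15.

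Of 12 other antiviral effector genes, 0 passed the test. Leaving out Rtp4 and Mx1, which passed the filter through the shCrebbp libraries, 8 of 10 had a difference above 0, with a median of 0.19 against 0.01 for all loci. Ifi35, an interferon-inducible leucine zipper protein gene, measured 33.8, 21.8, 30.3 and 29.9 FPKM in shCrebbp cells and 15.0, 13.1, 22.6 and 26.1 FPKM in scramble cells. Its locus (chr11:101448412-101466199) extends beyond the annotated gene, which ends at 101458698, so reads from outside the gene may be counted in it. Scramble 3 and 4 overlapped with shCrebbp 2 (28.9 ± 5.10 FPKM in shCrebbp and 19.2 ± 6.17 FPKM in scramble, SD, n = 4 each; log2 difference 0.60, limma adjusted p = 0.915, exact permutation p = 0.0857). Ifi27 measured 80.3, 48.8, 51.1 and 64.5 FPKM in shCrebbp cells and 38.1, 52.7, 46.7 and 46.2 FPKM in scramble cells (log2 difference 0.39, interval -0.03 to 0.80). The merged row of Ifi27l2a and Ifi27l2b has the same span (chr12:103433873-103457223), so these rows may share reads. That merged row measured 79.2, 47.7, 162 and 121 FPKM in shCrebbp cells and 47.1, 54.1, 92.0 and 110 FPKM in scramble cells. Samhd1 measured 104, 81.8, 71.9 and 59.6 FPKM in shCrebbp cells and 65.2, 68.4, 65.7 and 62.6 FPKM in scramble cells. Its shCrebbp values had an SD of 18.7 FPKM and its scramble values an SD of 2.38 FPKM. Of the others, Bst2, which tethers budding virus, measured 14.9 ± 5.68 FPKM in shCrebbp and 13.0 ± 1.94 FPKM in scramble cells, and Trim30a, a regulator of innate signalling, 35.9 ± 6.26 FPKM in shCrebbp and 27.9 ± 4.32 FPKM in scramble cells. Rtp4, Xaf1, Mx1, Cmpk2, Lgals3bp, Isg20 and Mx2 differed by 0.61, 0.25, 0.17, 0.08, 0.04, -0.03 and -0.05, and every one of these intervals includes 0.

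The Oas family, whose enzymes make the messenger that activates RNase L, held 5 genes, none of which passed the test. Oas1a, Oas3 and Oasl2 had means under 1 FPKM in scramble cells and passed the filter through the shCrebbp libraries, so their differences (0.60, 0.46 and 0.40) are not read as a direction. Oas2 differed by 0.05. Oasl1, a family member without that activity, lay below 0. It measured 4.28, 3.51, 13.3 and 4.61 FPKM in shCrebbp cells and 9.69, 8.47, 8.10 and 15.6 FPKM in scramble cells. All shCrebbp libraries but shCrebbp 3 lay below all scramble libraries (log2 difference -0.75, limma adjusted p = 0.915, exact permutation p = 0.114). Oas1a, Oas2, Oas3 and Oasl2 had group means of 0.664 to 1.84 FPKM, close to the filter of 1 FPKM. The Ifit genes, which bind foreign RNA, differed by -0.18 for Ifit2 and -0.11 for Ifit3.

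The interferon-inducible GTPases act on the vacuoles of pathogens inside cells, and Gbp2 had the highest difference among them. It measured 15.6, 11.3, 11.1 and 9.37 FPKM in shCrebbp cells and 5.67, 12.3, 6.50 and 5.89 FPKM in scramble cells. Scramble 2 alone lay in the shCrebbp range (11.8 ± 2.66 FPKM in shCrebbp and 7.59 ± 3.17 FPKM in scramble, SD, n = 4 each; log2 difference 0.62, limma adjusted p = 0.915, exact permutation p = 0.114). Ifi47, an immunity-related GTPase gene whose locus also holds Olfr56, measured 26.0, 17.6, 11.3 and 10.01 FPKM in shCrebbp cells and 6.98, 11.5, 11.2 and 12.5 FPKM in scramble cells. Here the AO228 libraries stood above all scramble libraries and the AO229 libraries among them. Tgtp2 is listed as a row of its own with the same span as Ifi47 (chr11:49037660-49135387), so these rows may share reads. It averaged 3.96 FPKM in AO228, 1.65 FPKM in AO229 and 2.31 FPKM in scramble libraries. The differences of Igtp, Gbp3, Irgm1, Gbp7 and Irgm2 were 0.30, 0.10, -0.18, -0.24 and -0.50, and each interval includes 0. Gbp genes are near copies of one another, and how reads that fit several were counted is not stated.

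Of the secreted and feedback genes, Cxcl10, a chemokine that draws T cells, measured 3.57, 7.71, 1.74 and 3.74 FPKM in shCrebbp cells and 11.6, 4.91, 6.59 and 12.2 FPKM in scramble cells. Only shCrebbp 2 lay within the scramble range (4.19 ± 2.52 FPKM in shCrebbp and 8.82 ± 3.62 FPKM in scramble, SD, n = 4 each; log2 difference -0.96, limma adjusted p = 0.915, exact permutation p = 0.0857). Its locus (chr5:92331841-92414627) extends beyond the gene, which Art3 overlaps on the other strand, and without a stated use of strand reads of Art3 may be counted in it. Cxcl11, listed as a row of its own with the same span, averaged 0.0190 FPKM. Of the macrophage and monocyte markers, Ly6c2 and Adgre1 lay on the same side (-1.32 and -1.23) and Lyz2 on the other (0.45), and the part of these markers in the values of Cxcl10 and Isg15 was not tested. Socs1, an inhibitor of Jak kinases, measured 14.2, 11.2, 4.64 and 6.77 FPKM in shCrebbp cells and 9.64, 12.5, 5.29 and 13.1 FPKM in scramble cells. Its AO228 libraries lay within or above the scramble range, and the difference between the groups was -0.16.

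**Figure D3:**
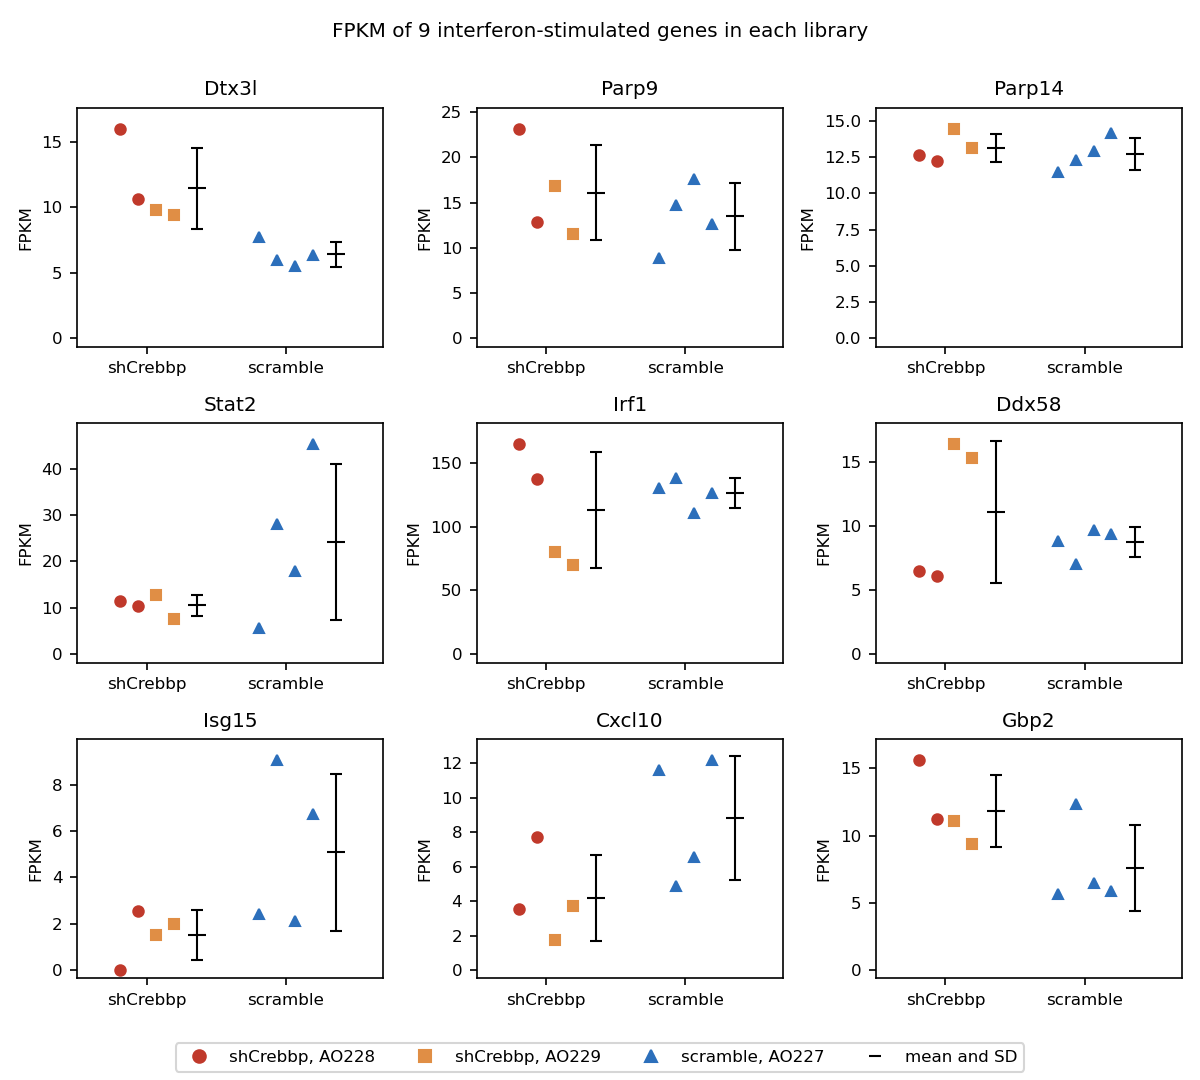
FPKM of 9 interferon-stimulated genes in each library (circles, shCrebbp AO228; squares, shCrebbp AO229; triangles, scramble), with mean and SD of 4 libraries beside each group. Dtx3l is higher in every shCrebbp library than in any scramble library, Irf1 and Ddx58 separate AO229 from AO228, and Stat2 varies most among scramble libraries.

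The second comparison set the shCrebbp libraries of prefix AO229 against those of AO228, with 2 libraries each, in a fit of all 3 prefixes that shares 1 estimate of the spread. Here limma called 1.28% of all loci (146), and among the 44 genes 1 rose and 1 fell, against 0.666% higher and 0.613% lower over all loci. Ddx58 rose in AO229, with 16.3 and 15.3 FPKM in AO229 libraries and 6.51 and 6.09 FPKM in AO228 libraries (log2 difference 1.20, standard error 0.21, limma adjusted p = 0.0434). Irf1 fell, with 80.4 and 70.3 FPKM in AO229 libraries and 165 and 137 FPKM in AO228 libraries (log2 difference -0.99, standard error 0.18, limma adjusted p = 0.0469). Both calls sit close to the threshold. They were lost when any single library other than scramble 2 was left out, with limma adjusted p of 0.0576 to 0.345 for Ddx58 and 0.0620 to 0.307 for Irf1, and without the filter (0.0769 and 0.0761). Where a shCrebbp library was left out, its prefix had 1 library, which is assumed to vary like the others.

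At an unadjusted p under 0.05, 3 genes (6.82%) lay higher in AO229, against 7.75% of all loci, and 4 genes (9.09%) lay lower, against 8.64%, shares near those of all loci. The 3 were Ddx58, Gbp7 and Oas2, and the 4 were Irf1, Ifi47, Samhd1 and Socs1. Gbp7 measured 3.43 and 4.27 FPKM in AO229 and 1.13 and 1.33 FPKM in AO228 libraries, with 1.82, 3.18, 3.69 and 3.09 FPKM in scramble 1 to 4 (log2 difference 1.12 between the prefixes, limma adjusted p = 0.142). Against this, Ifi47 had a difference of -0.94 (limma adjusted p = 0.156), Samhd1 of -0.49 (0.222) and Socs1 of -1.04 (0.228). Over the 44 genes 28 differences lay above 0 and 16 below, with a median of 0.24, against 0.00 for all loci. Without Oas1a, Oas3, Oasl2 and Mx1, which averaged under 1 FPKM outside AO229, 24 lay above 0 and 16 below, with a median of 0.15.

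By role, of which no test was made, both Ifit genes lay above 0 (median 0.82), as did 4 of 5 sensor genes (0.41). Leaving out the same 4 genes, Oas2 (1.14) and Oasl1 (0.88) lay above 0, as did 8 of 11 other effector genes (0.24). Both Socs1 and Cxcl10 lay below 0 (median -0.93), as did 3 of the 4 transcription factor genes (-0.36) and 4 of the 7 GTPase genes (-0.35). Over the genes with a mean of at least 5 FPKM alone the median was -0.15. Set against the same scramble libraries, AO228 had a median of -0.03 and AO229 of 0.32 over the 44 genes. The AO229 median includes Oas1a (1.13), Rtp4 (1.04), Oas3 (0.78), Mx1 (0.75) and Oasl2 (0.70). These passed the filter through the shCrebbp libraries, so the 0.32 is not read as a direction. In either comparison 0 genes passed limma at an adjusted p under 0.05, against 0 and 0.0175% of all loci. Ly6d was listed as a marker of plasmacytoid dendritic cells but is not specific to them, as early lymphoid cells also express it. It measured 370.5 and 498.9 FPKM in AO229 and 61.3 and 83.3 FPKM in AO228 libraries, against 158 to 458 FPKM in scramble libraries. Its mean over the 8 libraries, 273 FPKM, lay above that of 97.7% of the loci. Siglech, a defining marker of plasmacytoid dendritic cells, measured 0.919 and 0.767 FPKM in AO229 and 0 and 0.0305 FPKM in AO228 libraries. Pacsin1 averaged 3.65 FPKM in AO229 and 3.69 FPKM in AO228, and Klk1 averaged 0.573 FPKM in AO229 and 0.712 FPKM in AO228. Ccr9 averaged 0.594 FPKM in AO229 and 0.118 FPKM in AO228, and Clec10a averaged 0.234 FPKM in AO229 and 0 FPKM in AO228. The 6 genes listed for these cells, not all specific to them, summed to 377 to 505 FPKM in AO229 and 65.6 to 88.1 FPKM in AO228 libraries. In scramble libraries they summed to 161 to 461 FPKM. Nearly all of it was Ly6d, so the sum is not read as a level of plasmacytoid dendritic cells. The part of such cells in the difference was not tested.

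**Figure D4:**
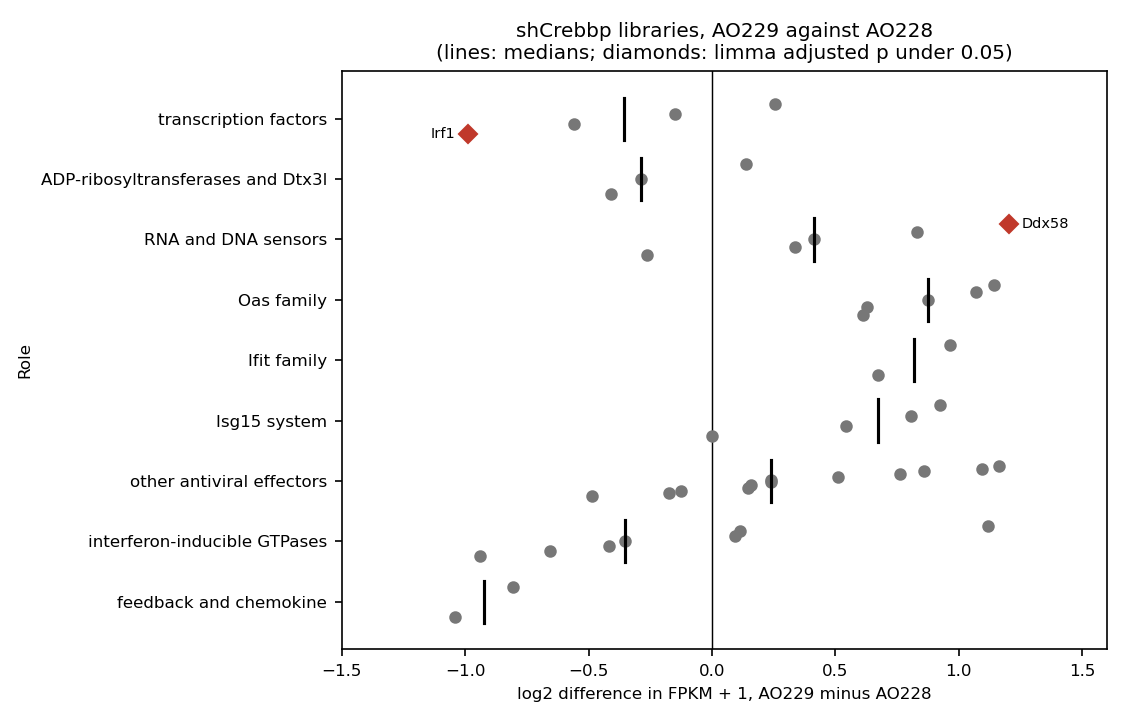
Difference of each of the 44 genes between the shCrebbp prefixes (x axis, log2 difference in FPKM + 1, AO229 minus AO228, 2 libraries each), by role; lines mark the median of each role and diamonds the genes past a limma adjusted p of 0.05. Ifit genes lie above 0 and Socs1 and Cxcl10 below it, Oas1a, Oas3, Oasl2 and Mx1 passed the filter only through AO229, and Ddx58 (1.20) and Irf1 (-0.99) are the 2 called genes.

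The genes reached their highest values unevenly over the libraries. ShCrebbp 3 held the highest value of 15 of the 44 genes (34.1%), against 12.2% of all loci, and shCrebbp 1 of 12 (27.3%), against 20.2%. ShCrebbp 2 held the highest value of 0 genes, against 9.82% of all loci, and shCrebbp 4 of 4 (9.09%), against 10.4%. Scramble 4 held that of 8 genes (18.2%), against 9.98% of all loci. Scramble 1, 2 and 3 held those of 1, 3 and 1 genes (2.27, 6.82 and 2.27%), against 9.84, 19.1 and 8.50%. The genes highest in shCrebbp 3 and those highest in shCrebbp 1 were of different kinds. Of the 19 genes with a mean under 5 FPKM, 10 were highest in shCrebbp 3 (52.6%, against 374 of 3741 loci of that level) and 0 in shCrebbp 1. Among these 10 were Oas1a, Oas3, Oasl2 and Rtp4, which passed the filter through the shCrebbp libraries. The filter thus favoured the shares of 34.1 and 52.6%. Of the 25 genes at 5 FPKM or more, 12 were highest in shCrebbp 1 (48%, against 22.6% of loci of that level) and 5 in shCrebbp 3. ShCrebbp 3 had the fewest loci listed at 0 of all libraries, and it held the highest value of Oas2. It also held that of Oas1a, Oas3 and Oasl2, which the filter favoured, while Oasl1 was highest in scramble 4. ShCrebbp 1 held the highest values of Dtx3l, Parp9, Irf1, Samhd1, Ifi27, Ifi35, Zbp1, Gbp2, Ifi47, Igtp, Trim30a and Socs1. The median log2 deviation of the 44 genes from their own means was -0.05, -0.10, 0.30 and 0.06 in shCrebbp 1 to 4, against -0.15, -0.05, -0.03 and 0.10 in scramble 1 to 4. These medians include the 5 genes that passed the filter through the shCrebbp libraries. Without shCrebbp 3 the median difference between shCrebbp and scramble was -0.02 in place of 0.09. The part of depth in these patterns was not tested.

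**Figure D5:**
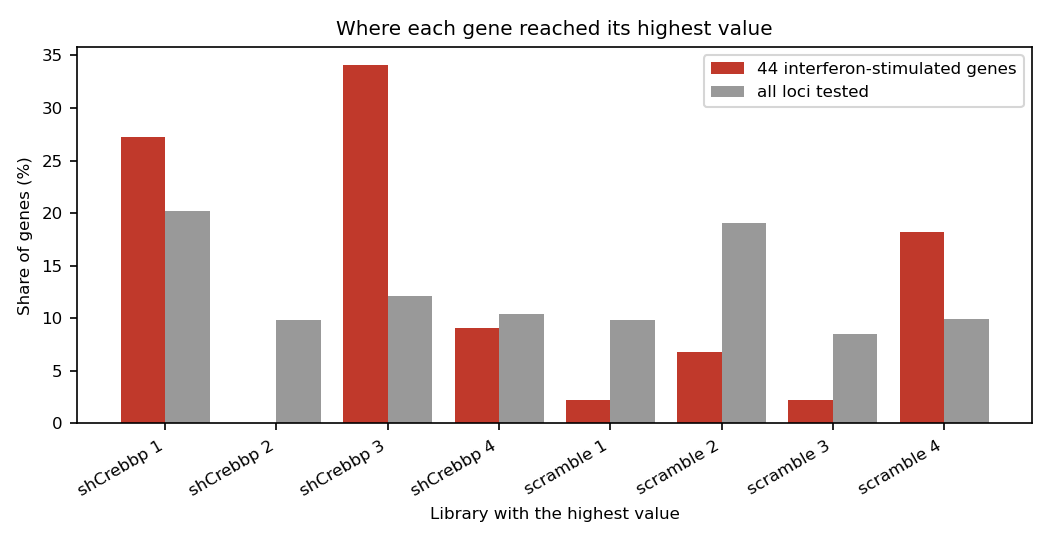
Share of genes (y axis, %) whose highest value of the 8 libraries fell in each library (x axis), for the 44 interferon-stimulated genes and for all 11417 loci tested. ShCrebbp 3 (34.1%) and shCrebbp 1 (27.3%) stand above the other libraries, and shCrebbp 2 held none. Oas1a, Oas3, Oasl2 and Rtp4, which passed the filter through the shCrebbp libraries, count towards shCrebbp 3.

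The pathway that drives these genes was read from a further 137 genes, of which 106 loci passed the filter. Between shCrebbp and scramble, limma called 0 of the 106, and at an unadjusted p under 0.05 there was 1 higher (0.943%) and 4 lower (3.77%), against 2.08% and 2.93% of all loci. The share of 3.77% lay near that of all loci. The 3 lower sensing genes, Mavs, Tank and Traf3, belong to the route that carries the signal from RIG-I. Other genes of this route did not go with them. Tbk1, Ikbke and Irf3 differed by -0.08, 0.08 and 0.07, with intervals that include 0, so no change of the route is read from the 3. Mavs, the adaptor on mitochondria, measured 5.74, 7.29, 6.16 and 6.59 FPKM in shCrebbp and 9.47, 11.9, 7.72 and 10.9 FPKM in scramble cells (log2 difference -0.55). Tank, an adaptor of the kinase Tbk1, measured 72.1 ± 12.3 FPKM in shCrebbp and 111 ± 26.2 FPKM in scramble cells (log2 difference -0.60, SD, n = 4 each). For Traf3, a ubiquitin ligase of the same route, the means were 19.7 ± 4.24 FPKM in shCrebbp and 26.3 ± 2.94 FPKM in scramble cells (log2 difference -0.42). In these 3 of the 106 loci all shCrebbp values lay below all scramble values, against 1.74% of all loci, and each had a limma adjusted p of 0.915. All shCrebbp values lay above all scramble values in 2, Pias1, a SUMO ligase gene (0.20), and Psme2, against 1.58% of all loci. Psme2, a proteasome activator gene, was the 1 higher gene (0.53), and the merged locus of Ifi30 and Pik3r2 was the other lower one (-0.61).

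Upstream, the receptor chains Ifnar1, Ifnar2, Ifngr1 and Ifngr2 differed between the groups by 0.01, 0.01, 0.05 and -0.44, and the kinases Jak1, Jak2 and Tyk2 by 0.11, -0.07 and 0.18, and none passed the test. Between the prefixes 3 of the 106 loci rose in AO229 and 0 fell, against 0.666% and 0.613% of all loci. At an unadjusted p under 0.05, 28 (26.4%) lay higher and 9 (8.49%) lower, against 7.75% and 8.64% of all loci. Pml, which organises antiviral nuclear bodies, measured 33.1 and 24.8 FPKM in AO229 and 4.06 and 5.26 FPKM in AO228 libraries (log2 difference 2.40, limma adjusted p = 0.0363). Plac8, a gene of early lymphoid and myeloid cells, averaged 457 FPKM in AO229 and 57.6 FPKM in AO228 libraries (2.96, limma adjusted p = 0.0439). Irf4, a B cell transcription factor that also binds interferon-type elements, averaged 249.6 FPKM in AO229 and 102 FPKM in AO228 libraries (1.28, limma adjusted p = 0.0497). In every scramble library all 3 genes measured more than in either AO228 library. Of the receptor chains, none of which passed the test, most lay on the same side. The differences were 0.75 for Ifnar1, 1.35 for Ifnar2, 1.04 for Ifngr1 and 1.30 for Ifngr2, with limma adjusted p of 0.225, 0.154, 0.117 and 0.0894. For Il10rb the difference was 1.30 (limma adjusted p = 0.127). Ifnar2 and Il10rb are listed as separate loci of the same span (chr16:91372783-91425834), so they may share reads. Ifnlr1, a chain of the interferon lambda receptor, lay on the other side, with means of 1.24 FPKM in AO229 and 3.45 FPKM in AO228 (limma adjusted p = 0.362).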

How the data were processed

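Libraries were made from Trizol-extracted total RNA longer than 200 nt with a stranded kit and ribosomal depletion, per the labels' protocols. The tools and build named in the submitters' processing notes are mm10, Cufflinks, TopHat2 and CASAVA 1.8, with roles not given. The authors deposited 1 table of FPKM per locus, a unit inferred from values and identifiers, with scaling not stated. Of its 13 sample columns 5 matched no sample and were not used, and 1 line was emptied. Starts were converted to count from 1.

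Loci averaging 1 FPKM or more were compared on log2(FPKM + 1) by limma 3.58.1 (R 4.3.3, empirical Bayes with mean trend, two-sided), adjusted by Benjamini-Hochberg over all 11417 loci at a threshold of 0.05, and single genes by an exact permutation test over 70 divisions. The fit was tested on simulated data. Replicates were numbered in accession order. Members and lists were chosen with earlier results of these data known. Values per library are given for Dtx3l, Parp9, Parp14, the 4 transcription factors, the 8 genes of smallest p between groups, the 6 between prefixes and the 4 highest. The values of 1 pathway gene and 1 marker gene are not reported here. Figures used Python 3.11.15.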

Additional observations from a re-analysis of the deposited data

Results flagged for a closer look

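In 7 of 88 groups of 4 libraries, 1 value stood apart from the other 3 by Dixon's test, where chance marks about 1 in 20 groups. ShCrebbp 1 stood high for Zbp1 (26.95 FPKM, the others 18.0 to 19.1) and shCrebbp 3 for Oasl1 (13.28 FPKM, the others 3.51 to 4.61). Scramble 2 stood high for Irf7 (71.93 FPKM, the others 42.3 to 44.7) and Gbp2 (12.32 FPKM, the others 5.67 to 6.50), and scramble 3 for Gbp3 (17.19 FPKM, the others 11.6 to 12.6). Scramble 4 stood high for Xaf1 (3.824 FPKM, the others 2.10 to 2.35) and low for Cmpk2 (1.166 FPKM, the others 2.79 to 2.98). Between the shCrebbp prefixes, AO229 minus AO228, Irf1 (-0.99) and Ddx58 (1.20) passed the limma test of the difference.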

How the results depend on the processing

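No paired analysis was possible because replicate numbers follow accession order and no label ties one library to another. The 0 genes called between shCrebbp and scramble stayed at 0 under every alternative run. The genes lower at an unadjusted p numbered 1 with pseudocounts of 0.1 and 0.01, without the filter and at a mean of at least 5 FPKM, and 0 to 3 when 1 library was left out, while those higher numbered 2 to 5. The median difference between the groups was 0.32 with AO229 alone, -0.03 with AO228 alone and -0.03 without scramble 2 and shCrebbp 3 (added after seeing the data), and -0.02 to 0.22 without 1 library. Between the prefixes the called genes numbered 0 without the filter, with a prior without trend and without scramble 2 and shCrebbp 3, and 0 to 2 without 1 library. The median between the prefixes was -0.15 at 5 FPKM, 0.11 without scramble 2 and shCrebbp 3, and 0.11 to 0.34 without 1 library. Leaving out the genes that passed the filter through 1 group, also added after seeing the data, gave 0.05 between the groups and 0.15 between the prefixes. For AO228 or AO229 alone no such median was taken, so the 0.32 is not read as a direction. Of all 44 genes, 12 had a difference of the other sign with AO228 alone and 7 with AO229 alone. Among the genes given per library, those with AO228 alone were Parp14 (-0.025), Irf1 (0.25), Irf9 (-0.039), Ddx58 (-0.41) and Socs1 (0.36). The others were Gbp7 with AO229 alone (0.32) and with library weights (0.068), and Parp14 (-0.014), Ddx58 (-0.11) and Socs1 (0.20) without scramble 2 and shCrebbp 3. Without 1 library Parp14 ranged from -0.0012 (without shCrebbp 3) to 0.092, Irf9 from -0.020 (without shCrebbp 3) to 0.17, Ddx58 from -0.019 (without shCrebbp 3) to 0.41, and Socs1 from -0.41 to 0.090 (without shCrebbp 3). The cause was not tested. Depth is unknown, which limits genes near 1 FPKM most.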
